A study of Mus musculus with 12 samples.

Results

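Osteopontin (Spp1) and 7 other genes that microglia are known to raise around injury and amyloid were followed in sorted microglia. The 7 were Gpnmb, Cst7, Lgals3, Cd9, Cd63, Cd44 and Rab7b. Mice were wild-type (WT) or had an inducible deletion of Hdac3. The 8 genes were chosen by name on measured values of these same libraries, and the sources used here do not say which values. They were taken as genes chosen for a rise of their RNA after stroke in WT microglia. Each symbol matched a single row among the 55401 genes counted. Their rise in WT-tFCI vs. WT-Sham is therefore a description and carries no test. Male mice of all 4 groups carried floxed Hdac3 (Hdac3 loxp/loxp) and received tamoxifen at 6 to 8 weeks of age, at least 1 month before surgery. WT mice had no CreER, whereas HDAC3-miKO (miKO) mice had a tamoxifen-inducible CreER in 1 Cx3cr1 allele, so that loss of HDAC3 and loss of 1 Cx3cr1 copy cannot be told apart, and Cx3cr1 also drives CreER in other resident macrophages. Transient focal cerebral ischemia (tFCI) was a 60 min occlusion of the middle cerebral artery, and Sham mice had the same anesthesia and exposure of the arteries. CD11b+ CD45int cells were sorted on day 3, with 3 to 4 hemispheres pooled per replicate, giving 3 libraries per group (WT-Sham and WT-tFCI, and miKO-Sham and miKO-tFCI).

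Microglia that meet damaged tissue lower the genes of the resting state and raise a shared set of genes for lipid handling, lysosomal degradation, adhesion and secretion. Spp1 is a secreted phosphoprotein that binds integrins and CD44, Lgals3 (galectin-3) is a secreted lectin that also marks ruptured lysosomes, and Cst7 (cystatin F) inhibits cysteine cathepsins inside endosomes and lysosomes. Gpnmb is a transmembrane glycoprotein of lysosomes and the cell surface, Cd44 is the main hyaluronan receptor, Cd9 and Cd63 are tetraspanins of the plasma membrane and of late endosomes, and Rab7b is a small GTPase of late endosomes and the Golgi. Histone deacetylase 3 (HDAC3) is the catalytic subunit of the NCoR/SMRT corepressor complexes.

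Libraries held 7697864 to 9452222 counts on genes. The targeted gene Hdac3 was at 35.0 to 46.4 CPM (a gene's counts divided by the TMM-scaled library total, per 1e+06) in WT-Sham against 20.9 to 25.8 CPM in miKO-Sham. After tFCI it was at 43.9 to 54.0 CPM in WT and 27.1 to 36.0 CPM in miKO, and the genotypes did not overlap after either surgery. The log2 fold change between miKO and WT was -0.81 after Sham (SE 0.16) and -0.71 after tFCI (SE 0.16), so that part of the Hdac3 RNA remained in miKO. Replicate 1 of each group was labelled batch 1 and replicates 2 and 3 batch 2. In the other 3 groups, the batch 2 libraries were the closest pair by a chi-square of their counts over genes, but in miKO-Sham the closest pair was replicates 1 and 2, at 2.82 per degree of freedom against 3.65 to 76.6 for the remaining pairs. miKO-Sham replicate 3 stood apart from both, at 37.9 and 40.8. The sources used here do not say whether replicates 1 and 2 share animals or whether the batch of replicate 2 holds, so that miKO-Sham may have fewer than 3 independent samples. The genotype differences after Sham are therefore also given without single miKO-Sham libraries. The microglial marker P2ry12 was at 454 CPM or more in every library.

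All 8 genes passed the filter on low counts, Gpnmb and Cd44 through groups other than WT-Sham, where they had at most 5 and 9 counts per library. Identity and position follow GENCODE M21 (GRCm38). Spp1 (ENSMUSG00000029304.14) lies on the plus strand at chr5:104435118-104441050, Gpnmb (ENSMUSG00000029816.10) on the plus strand at chr6:49036546-49070929, Cst7 (ENSMUSG00000068129.5) on the plus strand at chr2:150570415-150578944, and Lgals3 (ENSMUSG00000050335.17) on the plus strand at chr14:47367751-47386160. Cd9 (ENSMUSG00000030342.8) lies on the minus strand at chr6:125460266-125494791, Cd63 (ENSMUSG00000025351.14) on the plus strand at chr10:128900989-128912822, Cd44 (ENSMUSG00000005087.17) on the minus strand at chr2:102811141-102901665, and Rab7b (ENSMUSG00000052688.12) on the plus strand at chr1:131688695-131715439. The 8 genes lie on 6 chromosomes, and those that share a chromosome (Gpnmb with Cd9, and Cst7 with Cd44) are not neighbours.

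The sequence around the start sites of the 8 genes was searched for letters bound by factors active in myeloid cells. Binding to these letters was not tested. RefSeq (GRCm38.p6) gave windows of 250 bases before and 50 bases after the start for 7 of the 8 genes, with 2 starts for Spp1. On both strands, the search used TGANTCA (AP-1), GAGGAAG (a PU.1 core), CACGTG (the E-box read by MiT/TFE factors), TCATGTG (the M-box of MITF) and GGGNNTTCC (NF-kB). Among the 8 windows, 2 held the AP-1 letters (Gpnmb and Cst7) and 3 held the PU.1 core (Spp1, Cd63 and Cd44), with 1 match in each and no overlap between matches. No window held any of the remaining 3 motifs, and Lgals3, Cd9 and the second start of Spp1 held no match. Of 32851 promoter windows of the same length, 7.81% held the AP-1 letters, 13.63% the PU.1 core, 7.15% the E-box, 3.77% the M-box and 5.82% the NF-kB letters. The windows of the 4 genes with the largest rise from WT-Sham to miKO-Sham among those with a match are printed 5′ to 3′ in the direction of transcription, with the match in capitals, 113 bases before the start in Spp1, 8 bases after it in Gpnmb, 6 bases before it in Cst7 and 221 bases before it in Cd44, where the core is on the opposite strand.
Spp1, chr5:104434861-104435160, plus strand: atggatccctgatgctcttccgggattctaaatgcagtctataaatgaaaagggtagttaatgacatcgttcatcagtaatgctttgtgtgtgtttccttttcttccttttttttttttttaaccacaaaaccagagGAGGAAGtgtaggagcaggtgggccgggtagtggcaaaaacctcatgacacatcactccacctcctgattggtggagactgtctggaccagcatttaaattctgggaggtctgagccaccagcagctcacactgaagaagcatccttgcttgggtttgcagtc
Gpnmb, chr6:49036268-49036567, plus strand: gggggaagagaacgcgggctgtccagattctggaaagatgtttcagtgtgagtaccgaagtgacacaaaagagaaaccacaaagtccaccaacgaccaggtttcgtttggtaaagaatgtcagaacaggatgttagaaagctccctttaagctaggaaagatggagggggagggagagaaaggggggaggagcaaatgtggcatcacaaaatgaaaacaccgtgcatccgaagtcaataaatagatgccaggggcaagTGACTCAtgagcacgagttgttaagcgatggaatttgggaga
Cst7, chr2:150570165-150570464, plus strand: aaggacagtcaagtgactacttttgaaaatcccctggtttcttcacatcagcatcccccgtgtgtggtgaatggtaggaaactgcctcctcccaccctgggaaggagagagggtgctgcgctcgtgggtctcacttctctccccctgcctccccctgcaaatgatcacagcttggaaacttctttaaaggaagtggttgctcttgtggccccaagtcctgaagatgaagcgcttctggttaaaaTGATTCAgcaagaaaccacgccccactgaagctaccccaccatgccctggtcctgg
Cd44, chr2:102901616-102901915, minus strand: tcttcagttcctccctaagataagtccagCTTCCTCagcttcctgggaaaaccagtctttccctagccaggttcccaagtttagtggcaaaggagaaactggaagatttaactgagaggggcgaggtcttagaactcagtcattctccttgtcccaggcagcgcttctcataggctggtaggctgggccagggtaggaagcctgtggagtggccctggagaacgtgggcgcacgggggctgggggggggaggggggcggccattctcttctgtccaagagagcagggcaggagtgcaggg

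Spp1, Gpnmb, Lgals3, Cd44 and Rab7b rose stepwise from WT-Sham to miKO-Sham, WT-tFCI and miKO-tFCI, with no overlap between the libraries of neighbouring groups. Cst7 was as high in miKO-Sham as in WT-tFCI, with overlapping libraries, and highest in miKO-tFCI. Cd9 was highest in miKO-Sham and Cd63 followed surgery, with overlapping libraries between the genotypes.

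**Figure D1:**
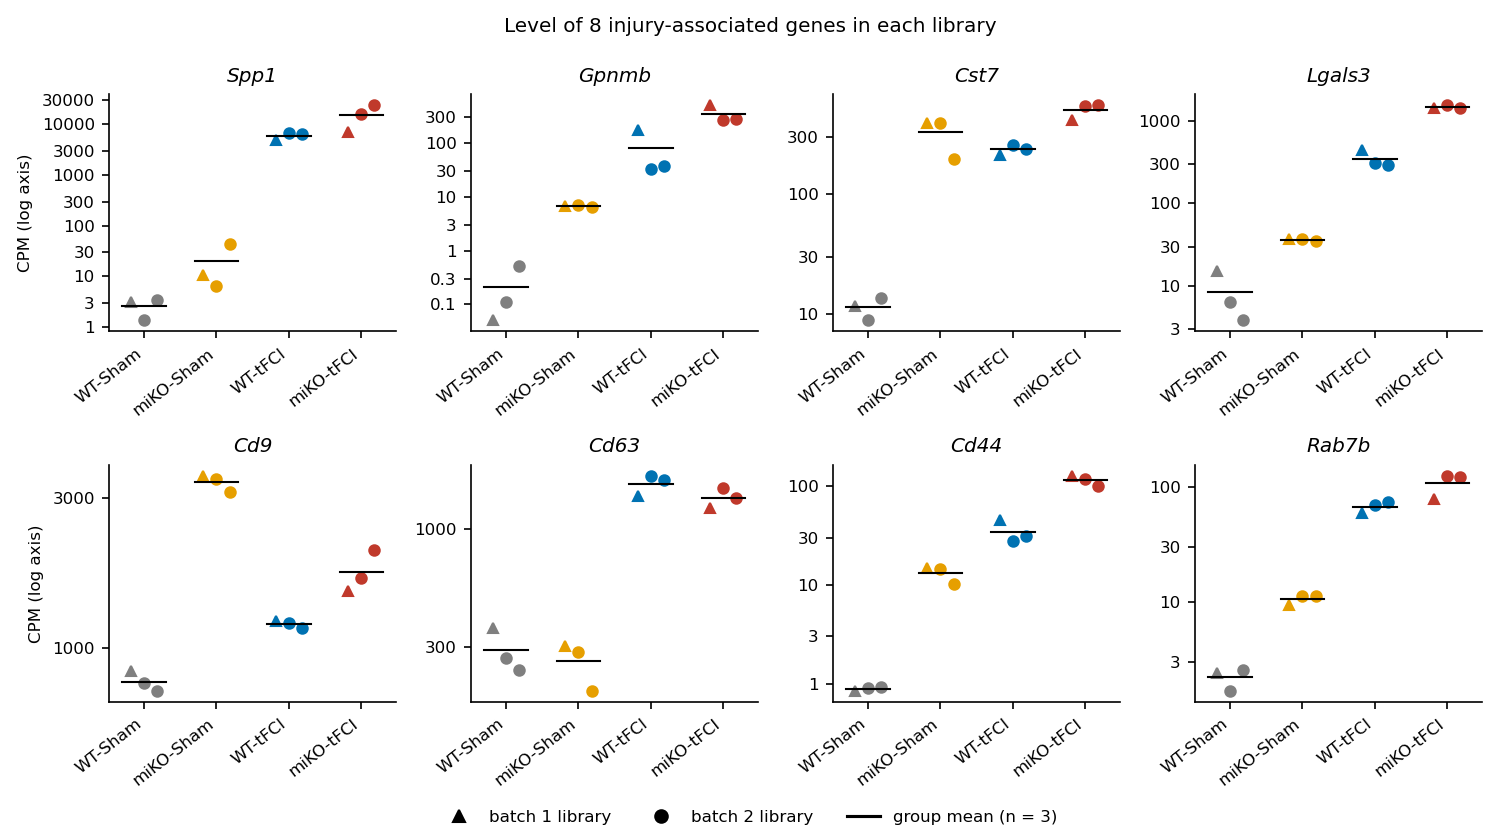
CPM of each gene (log axis, scaled separately per panel) in the 12 libraries, with triangles for batch 1, circles for batch 2 and a line at the group mean (n = 3). The Gpnmb library at 0 counts is drawn near the foot of its axis, and Cd9 is the gene whose miKO-Sham libraries (3141 to 3534 CPM) lie above both tFCI groups.

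Spp1 had the widest range of the 8 genes. It was at 3.13, 1.34 and 3.49 CPM in WT-Sham replicates 1 to 3, at 10.7, 6.52 and 42.8 CPM in miKO-Sham, at 4927, 6827 and 6336 CPM in WT-tFCI, and at 7120.1, 15733 and 23976 CPM in miKO-tFCI. Every library of a group lay above every library of the group before it, although miKO-Sham replicate 3 was 6.56 times miKO-Sham replicate 2 and miKO-tFCI libraries spread 3.37-fold. In miKO-tFCI, Spp1 took 0.730% to 2.23% of all counts on genes, against 0.504% to 0.716% in WT-tFCI. Per kilobase of exon, its mean level ranked 14th of all genes in WT-tFCI (3659 CPM per kb) and 3rd in miKO-tFCI (9472 CPM per kb). In miKO-Sham vs. WT-Sham, Spp1 rose by 2.84 on the log2 scale (SE 0.59, adjusted p = 0.00347), but without miKO-Sham replicate 3 by 1.81 (adjusted p = 0.0221). In miKO-tFCI vs. WT-tFCI, the difference of 1.26 (SE 0.45, 95% interval 0.30 to 2.22) did not pass the test (adjusted p = 0.0934), with 0.53 within batch 1 and 1.56 within batch 2. That call was sensitive to the fit. Over the alternatives the adjusted p ran from 8.45e-16 (no filter on low counts) to 0.286. It was 7.31e-04 with only the tFCI libraries fitted and 0.209 in DESeq2, and without 1 library it ranged from 0.0186 (miKO-Sham replicate 3 left out) to 0.286 (WT-tFCI replicate 3 left out). Border-associated macrophages also express Spp1, and their marker Mrc1 had the same order of replicates as Spp1 in each of the 4 groups. Mrc1 was at 36.4, 32.7 and 42.8 CPM in WT-Sham replicates 1 to 3, at 19.6, 17.5 and 81.7 CPM in miKO-Sham, at 18.3, 65.1 and 56.7 CPM in WT-tFCI and at 17.4, 143 and 162 CPM in miKO-tFCI. Of the same marker list, Cd163 also had this order in each group, and the other listed markers did not. Pf4 was at 123, 84.0 and 68.1 CPM in miKO-tFCI replicates 1 to 3, and Stab1 at 1498, 1576 and 1068 CPM in miKO-Sham. Mrc1 was named after its values were seen, and its part in the Spp1 differences was not tested.

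Lgals3 separated the genotypes after both surgeries, with replicates close together in miKO and spread up to 3.96-fold in WT-Sham. It was at 15.0, 6.27 and 3.80 CPM in WT-Sham, at 37.1, 36.9 and 35.5 CPM in miKO-Sham, at 443, 312 and 289 CPM in WT-tFCI, and at 1460, 1561 and 1444 CPM in miKO-tFCI. The groups did not overlap. Lgals3 rose by 2.22 on the log2 scale in miKO-Sham vs. WT-Sham (SE 0.29, adjusted p = 6.38e-05) and by 2.14 in miKO-tFCI vs. WT-tFCI (SE 0.25, adjusted p = 1.24e-04), which is 4.67-fold and 4.40-fold. The rise after Sham was 1.29 within batch 1 and 2.83 within batch 2. The difference between these 2 effects was -0.08 (SE 0.36, 95% interval -0.86 to 0.69, adjusted p = 0.94), an interval that still allows an unequal effect of up to 0.86 on the log2 scale. From miKO-Sham to miKO-tFCI it rose 41.0-fold (log2 fold change 5.36, SE 0.29, adjusted p = 1.55e-08).

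Cst7 showed its largest genotype difference without stroke. It was at 11.8, 8.85 and 13.6 CPM in WT-Sham, at 393, 394 and 197 CPM in miKO-Sham, at 213, 258 and 237 CPM in WT-tFCI, and at 416, 537 and 549 CPM in miKO-tFCI. The miKO-Sham libraries spanned the WT-tFCI range from both sides, with replicates 1 and 2 above it and replicate 3 below it. Cst7 rose 28.7-fold in miKO-Sham vs. WT-Sham (log2 fold change 4.84, SE 0.28, adjusted p = 5.75e-08) and 2.12-fold in miKO-tFCI vs. WT-tFCI (1.09, SE 0.23, adjusted p = 0.00877). The genotype effect was smaller after tFCI by 3.76 on the log2 scale (interaction -3.76, SE 0.35, adjusted p = 5.56e-05). Stroke added 0.61 in miKO microglia (SE 0.23, adjusted p = 0.0451), a call lost in 12 of 23 alternatives and at its weakest without miKO-Sham replicate 3 (0.31, adjusted p = 0.18).

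Gpnmb was close to the detection limit in WT-Sham. It had 0, 1 and 5 counts there, a sum of 6 with an exact Poisson 95% interval of 2.20 to 13.1 counts for counting error, or 0, 0.112 and 0.513 CPM. It was at 6.80, 6.94 and 6.40 CPM in miKO-Sham, at 173, 33.0 and 36.9 CPM in WT-tFCI, and at 504, 264 and 279 CPM in miKO-tFCI. The groups did not overlap, but in both tFCI groups the batch 1 library was the highest, 5.23 times the lowest library in WT-tFCI. Gpnmb rose 5.22-fold in miKO-tFCI vs. WT-tFCI (log2 fold change 2.39, SE 0.33, adjusted p = 4.61e-04), with 1.54 within batch 1, 2.95 within batch 2 and 3.04 without WT-tFCI replicate 1. It also rose in miKO-Sham vs. WT-Sham (4.90, SE 0.74, adjusted p = 2.62e-04), by an amount that the few WT-Sham counts leave loose and that ranged from 3.90 to 6.83 over the alternatives. From miKO-Sham to miKO-tFCI it rose 49.5-fold (5.63, SE 0.40, adjusted p = 1.82e-07). The summed level of 10 neuronal, astrocytic and endothelial markers was likewise highest in the batch 1 library of each tFCI group. It was at 245 CPM against 82.5 and 87.6 CPM in WT-tFCI and 524 CPM against 189 and 200.2 CPM in miKO-tFCI. The dendritic cell, monocyte and macrophage, and oligodendrocyte lineage sums were also highest in that library of both tFCI groups. The dendritic cell sum was at 126 CPM against 28.3 and 31.6 CPM in WT-tFCI and 343 CPM against 56.9 and 57.1 CPM in miKO-tFCI. The microglial, neutrophil, border-associated macrophage and cycling sums were lowest in that library. The part of these cell types in the Gpnmb values was not tested.

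Cd44 was higher in miKO than in WT after both surgeries, and higher after tFCI than after Sham in both genotypes. In WT-Sham it had only 7 to 9 counts per library. It was at 0.841, 0.896 and 0.923 CPM in WT-Sham, at 14.9, 14.6 and 10.1 CPM in miKO-Sham, at 45.1, 27.5 and 30.9 CPM in WT-tFCI, and at 127, 119 and 99.4 CPM in miKO-tFCI. No groups overlapped. The rise was 14.5-fold in miKO-Sham vs. WT-Sham (log2 fold change 3.86, SE 0.25, adjusted p = 1.59e-07), 3.39-fold in miKO-tFCI vs. WT-tFCI (1.76, SE 0.16, adjusted p = 1.12e-05) and 8.77-fold in miKO-tFCI vs. miKO-Sham (3.13, SE 0.17, adjusted p = 1.55e-08). The genotype effect was smaller after tFCI by 2.10 on the log2 scale (SE 0.31, adjusted p = 0.00159).

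Cd9, an abundant surface tetraspanin of microglia, was the only member of the 8 that fell with stroke in miKO microglia. It was at 843, 776 and 731 CPM in WT-Sham, at 3534, 3461 and 3141 CPM in miKO-Sham, at 1224, 1201 and 1158 CPM in WT-tFCI, and at 1522, 1677 and 2057 CPM in miKO-tFCI. No groups overlapped, and the miKO-Sham libraries were the highest. Cd9 rose 4.31-fold in miKO-Sham vs. WT-Sham (log2 fold change 2.11, SE 0.15, adjusted p = 4.25e-07) and fell by 0.95 on the log2 scale in miKO-tFCI vs. miKO-Sham (SE 0.15, adjusted p = 1.57e-04). In miKO-tFCI vs. WT-tFCI the difference was 0.55 (SE 0.15, adjusted p = 0.0273), under the fold threshold of 0.58. Its rise from WT-Sham to WT-tFCI was the smallest of the 8, at 1.52-fold. The interaction was -1.56 (SE 0.21, adjusted p = 7.61e-04). The antisense gene Gm26728 shares 218 of the 2044 exonic bases of Cd9. It had the same order of means, with 117 and 499 CPM in WT and miKO after Sham and 179 and 279 CPM after tFCI. The sources do not say that strand was used in counting. Reads on the shared bases therefore cannot be assigned to 1 of the pair, and elsewhere either gene may hold reads of both strands.

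Cd63, a tetraspanin of late endosomes and exosomes, followed surgery. It was at 366, 270 and 237 CPM in WT-Sham, at 305, 285 and 193 CPM in miKO-Sham, at 1411, 1731 and 1651 CPM in WT-tFCI, and at 1239, 1526 and 1372 CPM in miKO-tFCI. The genotypes overlapped after both surgeries, and the surgeries did not overlap in either genotype. Cd63 rose 5.32-fold in miKO-tFCI vs. miKO-Sham (log2 fold change 2.41, SE 0.20, adjusted p = 6.97e-07). The genotype difference was -0.16 after Sham (95% interval -0.57 to 0.26, adjusted p = 0.641) and -0.21 after tFCI (95% interval -0.62 to 0.20, adjusted p = 0.52), so that a rise of more than 0.26 on the log2 scale lay outside both intervals. The pseudogene Cd63-ps held 309 to 2784 counts per library and had the profile closest to that of Cd63, so that the split of reads between this pair is uncertain.

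Rab7b, a late endosomal GTPase, was at 2.40, 1.68 and 2.56 CPM in WT-Sham, at 9.44, 11.4 and 11.4 CPM in miKO-Sham, at 59.2, 70.5 and 74.1 CPM in WT-tFCI, and at 78.5, 126 and 124 CPM in miKO-tFCI. The groups did not overlap, but the gap between WT-tFCI replicate 3 and miKO-tFCI replicate 1 was small. Rab7b rose 4.81-fold in miKO-Sham vs. WT-Sham (log2 fold change 2.27, SE 0.21, adjusted p = 3.04e-06), 10.1-fold in miKO-tFCI vs. miKO-Sham (3.33, SE 0.17, adjusted p = 1.19e-08) and 1.59-fold in miKO-tFCI vs. WT-tFCI (0.67, SE 0.14, adjusted p = 0.00957). The call after tFCI was lost without the batch term (0.69, adjusted p = 0.0572), without WT-tFCI replicate 2 (0.64, adjusted p = 0.0645) or replicate 3 (0.68, adjusted p = 0.0534). The interaction was -1.60 (SE 0.25, adjusted p = 0.00279).

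Counted over the 8 genes, 7 (all but Cd63) were called higher in miKO-Sham vs. WT-Sham. That comparison called 15.4% of 16451 genes tested (8.58% higher). The median log2 fold change was 2.55 over the 8 genes and 0.04 over all genes tested. Without single miKO-Sham libraries, the log2 fold change ranged from 4.67 to 5.45 for Gpnmb, from 4.62 to 5.14 for Cst7, from 3.70 to 3.98 for Cd44 and from 1.81 to 3.31 for Spp1. It ranged from 2.14 to 2.43 for Lgals3, from 2.23 to 2.29 for Rab7b, from 2.07 to 2.17 for Cd9 and from -0.27 to 0.0226 for Cd63. The count was 7 without each miKO-Sham library in turn, with miKO-Sham replicates 1 and 2 summed as 1 library, and in batch 2 alone. Because the genes were taken as chosen for a low level in WT-Sham relative to WT-tFCI, and these WT libraries also enter the genotype comparisons, the counts are a description. After tFCI, 5 of the 8 genes rose in miKO-tFCI vs. WT-tFCI (Gpnmb, Lgals3, Cd44, Cst7 and Rab7b), where 8.79% of genes were called (4.08% higher), and the median was 1.17 against 0.04 over all genes. Spp1 and Cd9 were also higher in each miKO-tFCI library than in each WT-tFCI library but passed no call, and Cd63 was the only member with overlapping libraries. In the setting with miKO-Sham replicates 1 and 2 summed, and without miKO-Sham replicate 2 or 3, the count was 6, with Spp1 added. Spp1 also gained a call with miKO-Sham replicate 2 placed in batch 1, with only the tFCI libraries fitted, and without the low-count filter. Cd9 gained a call in batch 2 alone, without miKO-tFCI replicate 1 and without the fold threshold. Rab7b lost its call without the batch term and without WT-tFCI replicate 2 or 3. In bulk RNA, fewer cells of a type and less RNA per cell cannot be told apart.

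**Figure D2:**
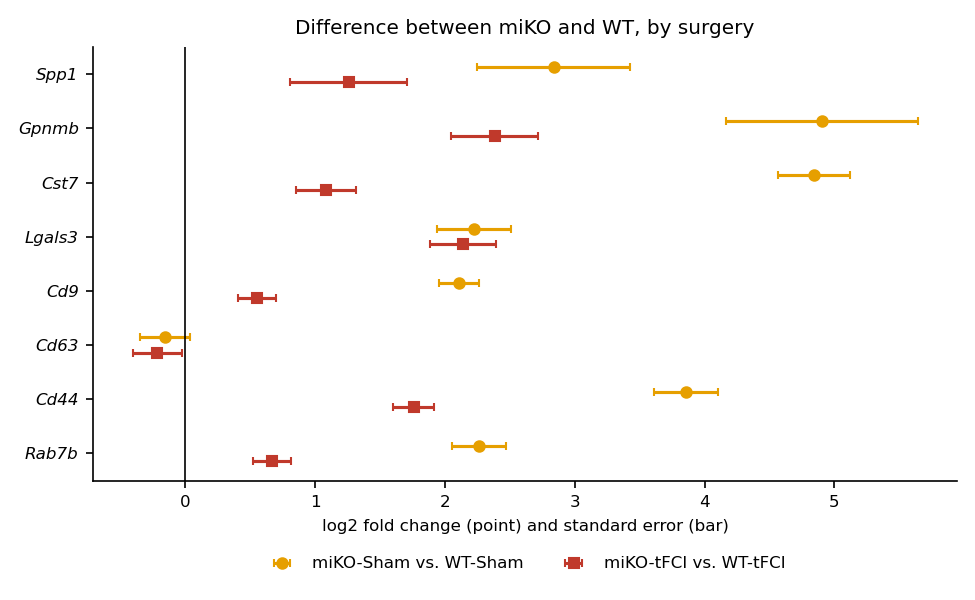
Log2 fold change between miKO and WT (points) with its standard error (bars) after Sham (circles) and after tFCI (squares). Lgals3 and Cd63 have nearly the same value after both surgeries, and the other 6 genes have the larger value after Sham, from 2.11 for Cd9 to 4.90 for Gpnmb.

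The genotype effect differed with surgery in 4 of the 8 genes, Cst7, Cd44, Rab7b and Cd9, and was smaller after tFCI in each. The interaction called 3.82% of all genes (2.57% lower). The medians were -1.59 over the 8 genes and -0.02 over all genes. Spp1 (-1.58, 95% interval -3.16 to -0.00152, adjusted p = 0.281) and Gpnmb (-2.52, 95% interval -4.49 to -0.55, adjusted p = 0.161) had interaction values as far below 0 but with larger errors. Without miKO-Sham replicate 3 the Spp1 value was -0.50 (adjusted p = 0.716), and that of Gpnmb ran from -1.51 without WT-Sham replicate 1 to -4.44 without WT-Sham replicate 3. A choice of genes low in WT-Sham and high in WT-tFCI by itself favours a negative interaction, so that this count is no independent support for one.

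Surgery raised 7 of the 8 genes in miKO microglia and lowered Cd9, in a comparison (miKO-tFCI vs. miKO-Sham) that called 35.8% of genes (21.9% higher). It contrasted no WT library, but whether the miKO libraries also entered the choice of the genes is not given in the sources used here. The median was 3.23 over the 8 genes and 0.03 over all genes. Of the 7 rises, that of Cst7 (0.61) lost its call in 12 alternatives and kept it in 11. In WT-tFCI vs. WT-Sham, the contrast taken as that of the choice, all 8 were past both thresholds, where 32.6% of all genes were (20.9% higher). Nothing is read from that count. By the ratio of mean CPM, the WT rise ran from 1.52 for Cd9 and 5.49 for Cd63, through 20.6 for Cst7, 30.7 for Rab7b, 38.9 for Cd44 and 41.6 for Lgals3, to 2273 for Spp1, with Gpnmb resting on 6 counts in WT-Sham.

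**Figure D3:**
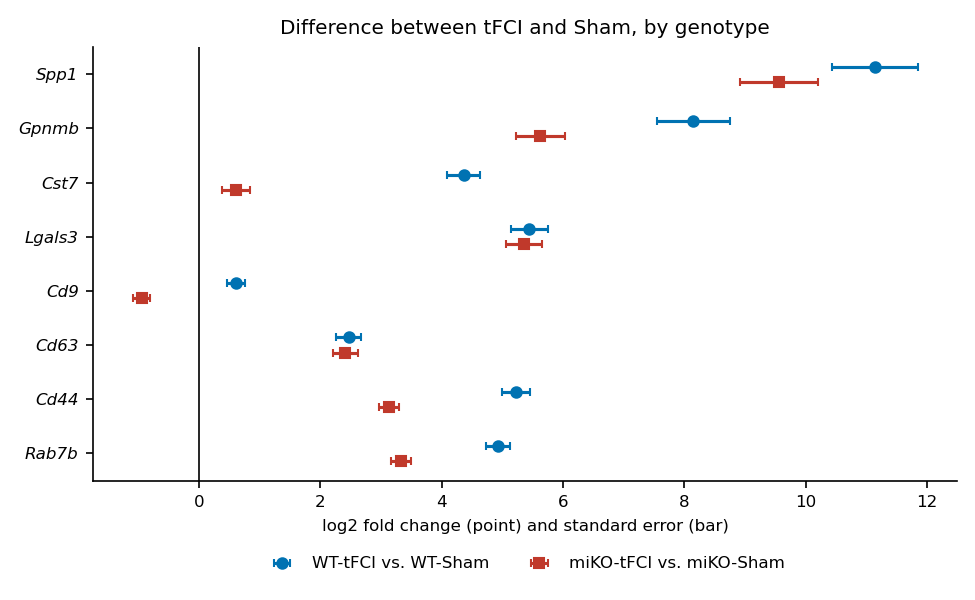
Log2 fold change between tFCI and Sham (points) with its standard error (bars) in WT (circles) and miKO microglia (squares). Lgals3 and Cd63 rose by nearly the same amount in both genotypes, Cst7 rose by 0.61 in miKO against 4.36 in WT, and Cd9 was above 0 in WT and below 0 in miKO.

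A direct comparison of miKO-Sham with WT-tFCI was added after the levels were seen. It placed 6 of the 8 genes lower in miKO-Sham and Cd9 higher, against 29.9% of genes called (18.3% lower). The gap was widest for Spp1, 317-fold lower in miKO-Sham (log2 fold change -8.31, SE 0.61, adjusted p = 1.95e-07; -9.32 without miKO-Sham replicate 3), and narrowest for Cd44, 2.59-fold lower (-1.37, SE 0.17, adjusted p = 2.31e-05). Gpnmb, Lgals3, Rab7b and Cd63 were 9.47-, 9.31-, 6.32- and 6.17-fold lower, where the log2 fold change of Gpnmb was -3.24, and -2.57 without WT-tFCI replicate 1. Cd9 was 2.83-fold higher (1.50, SE 0.15, adjusted p = 3.11e-06). Cst7 differed by 0.48 (95% interval -0.01 to 0.97, adjusted p = 0.119), and by 0.78 without miKO-Sham replicate 3 (adjusted p = 0.00338).

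By the root mean square difference of log2 CPM over the 12 libraries (each gene centred on its mean), the nearest of 16443 other genes was named for each member. After its antisense and pseudogene partners were passed over, Cd9 was nearest to Slamf9 (0.195) and Cd63 to Galns (0.210), the lysosomal sulfatase of keratan sulfate. Cd44 was nearest to Clec4d (0.303), a C-type lectin receptor, Rab7b to Lilr4b (0.431), an immunoglobulin-like receptor, and Cst7 to the glucose transporter gene Slc2a6 (0.460). Lgals3 was nearest to Anxa2 (0.653), the annexin A2 gene. Gpnmb and Spp1 had no close match, with Plat (tissue plasminogen activator) at 0.722 for Gpnmb and the collagen gene Col3a1 at 1.59 for Spp1. The next nearest were Gfap and Col4a1 for Gpnmb and Saa3 and Lum for Spp1, which include astrocyte and stromal genes. Some neighbours depended on the prior count of 2 counts added before the logarithm. With 0.5, Cd44 was nearest to Dcdc2a (0.524) and Clec4d was not among its 3 nearest, Cst7 was nearest to AI427809 (0.452), and Gfap was not among the 3 nearest of Gpnmb.

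Genes of the pathways around the members were taken as fixed lists, chosen with earlier results of these data known and described by counts. Over all genes tested, 8.58% rose and 6.8% fell in miKO-Sham vs. WT-Sham, and 4.08% rose and 4.71% fell in miKO-tFCI vs. WT-tFCI. Of 14 tested partners of Spp1 (integrin subunits, metalloproteinases that cut it, and related genes), 4 rose and 2 fell in miKO-Sham vs. WT-Sham, and 4 rose and 2 fell in miKO-tFCI vs. WT-tFCI. Mmp12 (macrophage elastase) was at 0.388 ± 0.378 CPM in WT-Sham and 10.0 ± 2.99 CPM in WT-tFCI (SD, n = 3). In miKO it was at 7.66 ± 3.34 CPM after Sham and 133 ± 43.4 CPM after tFCI. It was higher in miKO by 4.18 after Sham (SE 0.58, adjusted p = 1.32e-04) and by 3.73 after tFCI (SE 0.34, adjusted p = 1.16e-05). Mmp12 was close to the detection limit in WT-Sham and passed the filter on low counts through other groups. The size of its rise after Sham is therefore loose. The osteopontin receptor subunit Itga9 fell by 2.08 after Sham (SE 0.19, adjusted p = 3.01e-06) and by 0.94 after tFCI (SE 0.20, adjusted p = 0.00794). Mmp14 fell by 2.90 after Sham (SE 0.39, adjusted p = 8.83e-05). Of 14 hyaluronan and cytoskeletal partners of Cd44, 3 rose after Sham, and 2 rose and 1 fell after tFCI. The linker genes Msn (moesin) and Ezr (ezrin), which tie CD44 to actin, rose in both, Msn by 1.31 and 0.90 (adjusted p = 2.39e-04 and 0.00947), while the hyaluronan receptor gene Hmmr fell by 1.07 after tFCI (adjusted p = 0.00701).

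Among 9 tested galectins and partners of galectin-3, 4 rose and 1 fell after Sham and none passed after tFCI. Lgals3bp rose by 2.16 after Sham (SE 0.14, adjusted p = 1.69e-07), whereas after tFCI its difference was 0.10 (adjusted p = 0.691), and the interaction was -2.07 (adjusted p = 6.00e-05). Of 8 cystatins and target proteases of Cst7, 4 rose after Sham, and 3 rose and 1 fell after tFCI. The cathepsin genes Ctsb and Ctss rose in both, Ctsb by 2.00 and 0.95 (adjusted p = 7.59e-06 and 0.00745) and Ctss by 1.65 and 0.70 (adjusted p = 1.96e-05 and 0.0253). Cst3 (cystatin C), an abundant gene of resting microglia, fell by 1.06 after tFCI (adjusted p = 0.00203). Of 18 other tetraspanins, 3 rose and 5 fell after Sham, and 4 rose and 2 fell after tFCI. Cd81, the close relative of Cd9, rose in both by 1.96 and 0.95 (adjusted p = 1.64e-06 and 0.00234), and Tspan7 fell in both by 1.95 and 1.73 (adjusted p = 4.06e-07 and 5.73e-06).

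Late endosomal Rab genes and effectors of Rab7 gave 3 rises among 16 genes after Sham (Rab27a, Rab7 and Rab5c, by 0.68 to 0.89) and no call after tFCI. Of 17 MiT/TFE factors and lysosomal genes, 7 rose after Sham (median of the list 0.80), and 4 rose and 1 fell after tFCI (median 0.14). Lamp1, a lysosomal membrane protein gene, rose by 1.51 and 0.69 (adjusted p = 3.79e-05 and 0.0248).

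Beyond the 8 genes, a list of 40 other injury-associated microglia genes was described in the same way, and all 40 were tested. In miKO-Sham vs. WT-Sham, 30 rose and none fell (median 1.38), where 8.58% of all genes tested rose and 6.8% fell. In miKO-tFCI vs. WT-tFCI, 20 rose and 5 fell (median 0.64), where 4.08% of all genes rose and 4.71% fell. Over the alternatives, 26 to 30 rose after Sham and 13 to 21 after tFCI. Apoe, the main lipid carrier of the brain, was at 1129 ± 334 CPM in WT-Sham and 47467 ± 30054 CPM in miKO-Sham (SD, n = 3), and rose by 5.39 on the log2 scale after Sham (SE 0.56, adjusted p = 9.02e-06) and by 2.35 after tFCI (SE 0.49, adjusted p = 0.00739). Clec7a (dectin-1) rose by 4.67 after Sham (adjusted p = 3.93e-07), and Lyz2 (lysozyme) by 4.01 and 2.43 (adjusted p = 6.79e-08 and 1.16e-05). The genes that fell after tFCI included Ch25h, which makes 25-hydroxycholesterol, at -1.33 (adjusted p = 5.22e-04), the adhesion gene Cadm1 at -1.06 (adjusted p = 0.00173) and the stress factor gene Atf3 at -0.89 (adjusted p = 0.00407). The interaction called 3.82% of all genes (2.57% lower). Of the 40 genes, 18 were called there and all 18 were negative (9 to 24 over the alternatives, with at most 1 positive). They included Clec7a (-3.18, adjusted p = 6.75e-04), Apoe (-3.04, adjusted p = 0.0199), Lilrb4a (-3.03, adjusted p = 0.00528) and Axl (-2.07, adjusted p = 8.60e-04). In WT-tFCI vs. WT-Sham 35 of the 40 rose (20.9% of all genes), and in miKO-tFCI vs. miKO-Sham 23 rose and 3 fell (21.9% and 13.9% of all genes). The 40 genes were also chosen with earlier results of these data known. As for the 8 genes, their counts are a description and no independent support for a negative interaction.

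**Figure D4:**
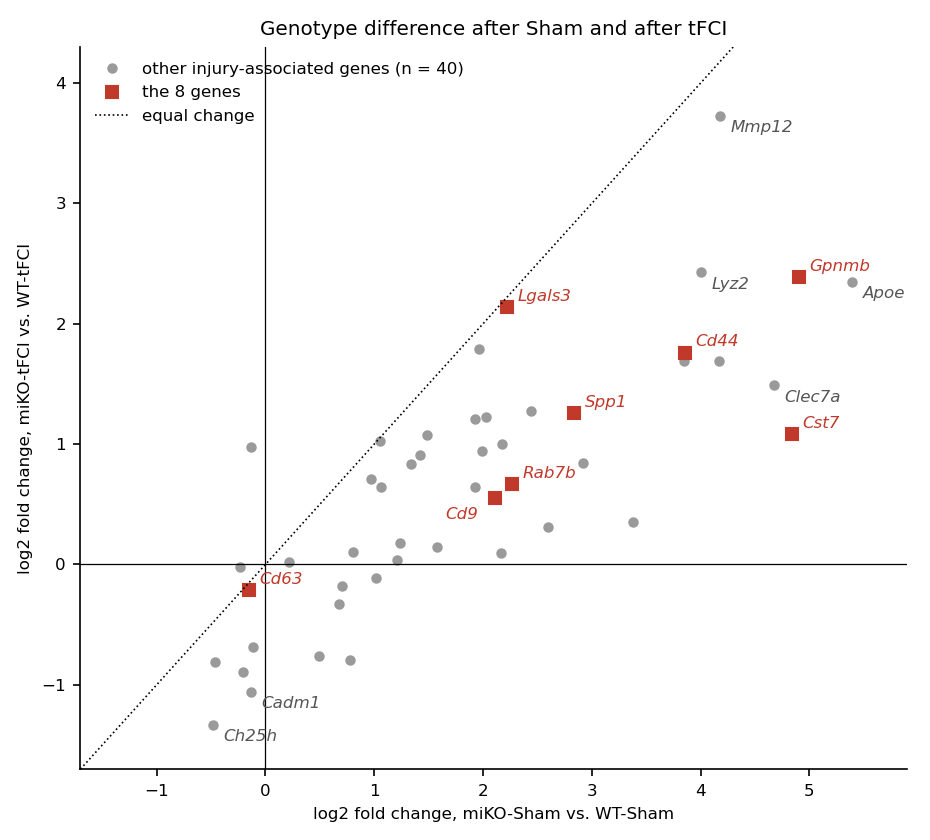
Log2 fold change in miKO-Sham vs. WT-Sham (horizontal) and miKO-tFCI vs. WT-tFCI (vertical) for the 8 genes (squares) and 40 other injury-associated genes (circles), with a dotted line at equal change. Both axes are differences from WT libraries, and most points lie below the dotted line, with Apoe farthest to the right at 5.39 and Mmp12 highest at 3.73.

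Several of the 8 genes are also expressed by other myeloid cells, so the summed levels of marker lists are given beside them. The 14 microglial markers summed to 36083 to 44940 CPM in WT-Sham and 26174 to 27693 CPM in WT-tFCI. In miKO they summed to 31526 to 37809 CPM after Sham and 13457 to 22840 CPM after tFCI, where 7 fell against WT-tFCI. This list holds Cx3cr1, the locus that carries CreER in miKO mice. The 15 monocyte and macrophage markers summed to 172 to 313 CPM and 146 to 307 CPM in the Sham groups and 895 to 1292 CPM and 869 to 1553 CPM in the tFCI groups, with overlapping ranges between genotypes. Of the 14 tested, 2 rose and 1 fell after Sham (median log2 fold change between miKO and WT 0.72). After tFCI, 6 rose and 1 fell (median 2.05). Fn1 and Nr4a1 had the largest means of the list in WT-tFCI, at 369 and 507 CPM, against 206 and 137 CPM in miKO-tFCI. Arg1 (16.0 to 47.5 CPM against 121 to 234 CPM) and Chil3 (44.5 to 117 CPM against 239 to 311 CPM) were higher in miKO-tFCI without overlap. The defining marker Ccr2 was at 4.71 to 8.05 CPM in WT-Sham and 3.17 to 21.4 CPM in WT-tFCI. In miKO it was at 4.58 to 12.3 CPM after Sham and 18.5 to 75.9 CPM after tFCI.

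The 10 neutrophil markers summed to 636 to 1359 CPM in WT-Sham and 491 to 587 CPM in WT-tFCI. In miKO they summed to 1097 to 1134 CPM after Sham and 918 to 1259 CPM after tFCI. Of the 9 tested, 6 rose in miKO-tFCI vs. WT-tFCI (median log2 fold change 2.30), with S100a8 at 264 to 333 CPM against 54.9 to 64.8 CPM. Ly6g, the defining marker, was at 0 to 0.742 CPM over all libraries. The 10 markers of border-associated macrophages summed to 554 to 710 CPM in WT-Sham and 1350 to 1679 CPM in miKO-Sham, most of it Stab1 at 445 to 583 CPM and 1068 to 1576 CPM, while Mrc1 (32.7 to 42.8 CPM and 17.5 to 81.7 CPM) and Lyve1 (3.92 to 7.21 CPM and 1.94 to 19.7 CPM) overlapped. Of the 10, 3 rose and none fell after Sham, and likewise after tFCI. Folr2 (5.53 to 7.62 CPM against 34.3 to 47.9 CPM) and Ms4a7 (8.63 to 11.5 CPM against 19.7 to 33.6 CPM) did not overlap between WT-Sham and miKO-Sham. After tFCI this list summed to 714 to 1042 CPM in WT-tFCI and 1001 to 2098 CPM in miKO-tFCI. Dendritic cell markers summed to 57.0 CPM or less in the Sham groups, 28.3 to 126 CPM in WT-tFCI and 56.9 to 343 CPM in miKO-tFCI, and 9 oligodendrocyte lineage markers to 151 to 325 CPM over all libraries. The 7 cycling markers summed to 529 to 698 CPM in WT-tFCI and 343 to 434 CPM in miKO-tFCI, where 5 of the 7 fell. No marker was at 0 in all libraries, and the part of other cell types in the differences of the 8 genes was not tested.

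**Figure D5:**
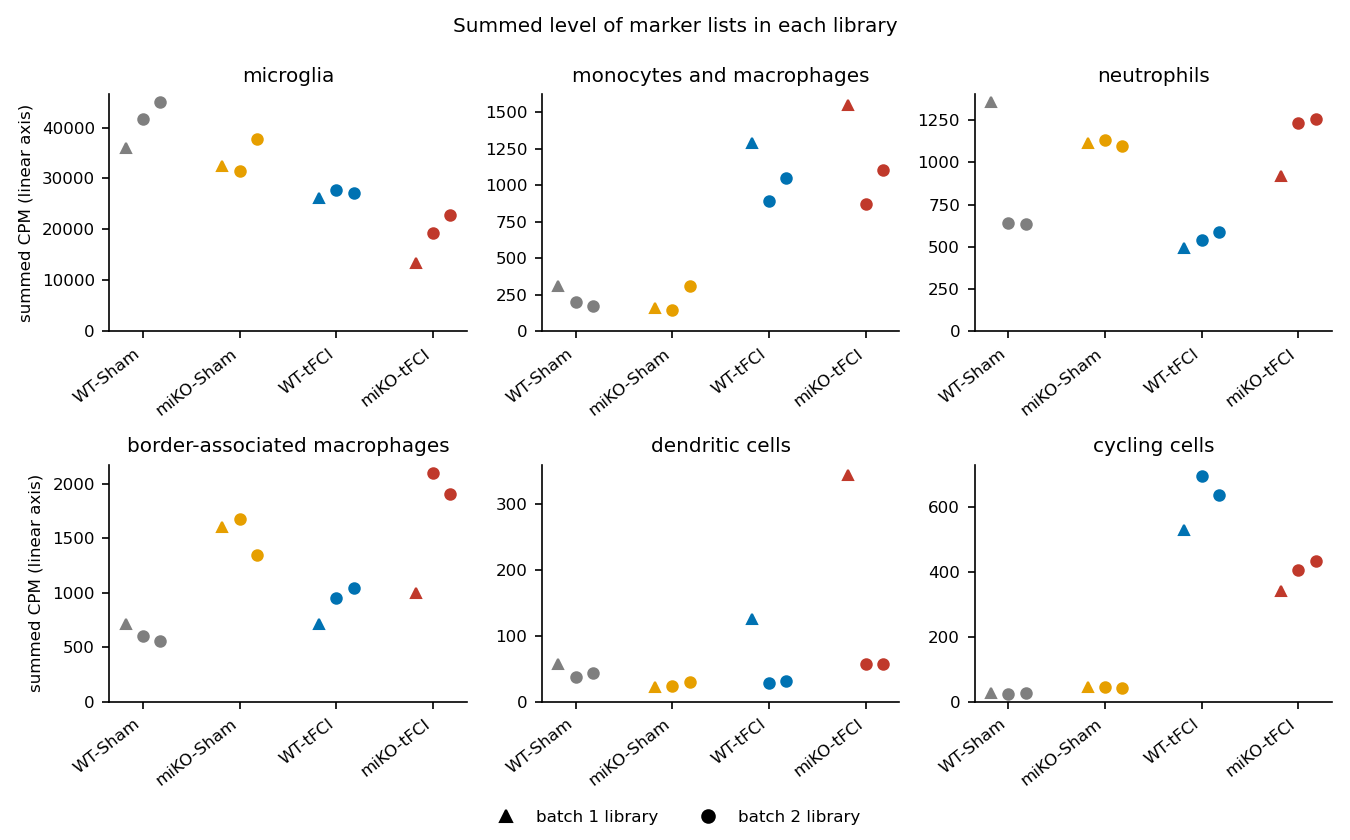
Summed CPM of 6 marker lists (linear axes from 0) in the 12 libraries, with triangles for batch 1 and circles for batch 2. The microglial sum is lowest in miKO-tFCI (13457 to 22840 CPM), and the monocyte and macrophage sums of the genotypes overlap after both surgeries. Within that list, Arg1 and Chil3 are higher, and Nr4a1 lower, in each miKO-tFCI library than in each WT-tFCI library.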

How the data were processed

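Paired-end RNA-seq of sorted microglia (SMART-Seq v4 libraries) was analysed from 12 libraries, 3 in each of 4 groups taken from the sample labels. Reads were trimmed, aligned and counted per gene by the authors, and the deposited values are raw counts without normalization. The submitters' processing notes name HISAT2 2.2.1, SAMtools, HTSeq 1.99.2 and builds mm10 and GRCm38.p6, and the strand setting is not given in the sources used here. Lines of reads on no gene were left out (45.3% to 52.5% of reads per library). Symbols and positions came from GENCODE M21, which matched 55141 of 55401 identifiers without version, and promoter windows from RefSeq. The window of Rab7b and protein sequences were not analysed here.

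Counts were fitted in R 4.3.3 with edgeR 4.0.16 (filterByExpr, TMM, glmQLFit and glmQLFTest) with group and sequencing batch over all 12 libraries, and p-values were adjusted by Benjamini-Hochberg over 16451 genes. A gene was called where the adjusted p was under 0.05 and the log2 fold change lay beyond 0.58 in either direction. SE is the log2 fold change divided by the root of F. log2 CPM used a prior count of 2. Alternatives were DESeq2, other scaling, filters, terms and subsets, and each library left out. Each replicate pooled several animals, so p-values measure the spread between pools. Depth limits genes with few counts, for which counting error is large. The fit was tested on simulated counts.

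The 8 genes and all lists were chosen with earlier results of these data known. Named beside them were, per list and comparison, up to 3 called genes with the largest rise and fall and no overlap between groups, the 3 nearest profiles of each member, overlapping genes and defining markers. In prose a part of those is given. Interaction values of list genes, and genes said to be so, were chosen after their values were seen. miKO-Sham vs. WT-tFCI, batch 2 alone, and the summed or re-batched miKO-Sham replicates were added after seeing the data. Deviations of same-numbered libraries correlated at 0.32 to 0.67 between WT-tFCI and miKO-tFCI, and at -0.06 to 0.28 between the other groups. The main fit held batch and no pairs of libraries, and a replicate block over all groups was an alternative. Any pairing by number is read from the data, and the replicate number also contains the batch.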

Additional observations from a re-analysis of the deposited data

Results flagged for a closer look

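The genotype effect on 4 of the 8 genes differed between surgeries by the interaction test, with a smaller value after tFCI than after Sham in each. The difference of the log2 effects was -3.76 for Cst7, -2.10 for Cd44, -1.60 for Rab7b and -1.56 for Cd9. The adjusted p (edgeR's quasi-likelihood test, Benjamini-Hochberg) was 5.56e-05, 0.00159, 0.00279 and 7.61e-04, in the same order. The genes were taken as chosen on WT libraries that enter this test. No group had enough libraries for a test of outlying samples.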

How the results depend on the processing

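Of 1084 recomputed fold changes of the 8 genes, 1037 kept their direction and their side of the thresholds, 21 lost and 12 gained a call, and 14 changed sign. The 14 were uncalled values near 0. With 1 library left out, the interaction of Cd63 ranged from -0.28 to 0.0624 and that of Lgals3 from -0.69 to 0.25, and Cd63 in miKO-Sham vs. WT-Sham from -0.29 to 0.0511. With miKO-Sham replicates 1 and 2 summed, the interaction of Cd63 was 0.0452, and with replicate 2 placed in batch 1 it was 0.00206 for Cd63 and 0.0749 for Lgals3.

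The number of the 8 genes called in miKO-tFCI vs. WT-tFCI was 3 instead of 5 when at least 10 counts were required in every library, a filter that removes Gpnmb and Cd44. The count of all genes called there was 1446, against 2193 without a filter, 701 without the batch term, 2535 with only the tFCI groups and 616 to 1667 with 1 library left out (616 without WT-tFCI replicate 3, 700 without WT-tFCI replicate 2, 917 without miKO-tFCI replicate 3). In miKO-tFCI vs. miKO-Sham it was 5887, against 3744 under the strict filter. In the interaction it was 629, against 971 in DESeq2, 1272 without a filter, 303 without the batch term and 281 to 883 with 1 library left out (281 without WT-tFCI replicate 2 or 3, 315 and 329 without WT-Sham replicate 3 or 2, 383 without miKO-Sham replicate 1). Apart from the strict filter, the cause was not tested.

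A replicate block in place of batch gave 5 members called in miKO-tFCI vs. WT-tFCI, 7 in miKO-Sham vs. WT-Sham, 8 in miKO-tFCI vs. miKO-Sham and 4 in the interaction, and 1429 genes in miKO-tFCI vs. WT-tFCI. It changed no call of the 8 genes. At 7697864 to 9452222 counts per library, Gpnmb (0 to 5 counts) and Cd44 (7 to 9 counts) in WT-Sham had large counting error.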
